A study of Mus musculus with 35 samples.

Results

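The genes described here encode, in the mouse nucleus, the subunits of respiratory complexes II to V and the electron carrier cytochrome c. Members were chosen by symbol: Sdha to Sdhd, Cyc1, Cycs and every gene whose symbol begins with Uqcr, Cox4 to Cox8 or Atp5. The symbols matched 58 Ensembl identifiers, of which 8 pseudogenes were dropped, and 47 of the remaining 50 were in the authors' deposited table of 18947 genes. The other 3 identifiers, for Atp5g2, Cox7b2 and a further copy of Atp5o, were not analysed here. Complex II contributed 4 members, complex III 9, cytochrome c 1, complex IV 17 and complex V 16.

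The study sequenced RNA from mouse fat depots in 35 samples. The values used here compare interscapular brown fat (iBAT, 4 mRNA samples) with epididymal white fat (eWAT, 4 mRNA samples), both dissected from male C57BL/6J mice of 15 weeks and flash frozen. The labels name no transgene and no treatment for either group. The labels do not say that the 4 samples of a depot came from separate animals, so the p-values measure the spread between these samples, which may be technical. The 9 Argonaute crosslinking samples and the 18 microRNA samples were not analysed here.

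In the respiratory chain, complex II (succinate dehydrogenase) passes electrons from succinate to ubiquinone, complex III passes them on to cytochrome c, and complex IV (cytochrome c oxidase) passes them to oxygen. Complexes III and IV pump protons as they do so, and complex V (ATP synthase) lets protons back through its rotating c ring to make ATP. Brown fat is rich in mitochondria and carries the uncoupling protein Ucp1, which lets protons return without ATP synthesis and releases heat, and its ATP synthase content is known to be low for its respiratory capacity. Several complex IV subunits exist as paired isoforms, one made in most tissues and one typical of heart and skeletal muscle.

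The authors' deposited table gives, for each gene, a base mean (the mean normalized count over all samples), a log2 fold change with its standard error (SE), a p-value and an adjusted p. Values of single libraries were not at hand, so none is shown, and the overlap of the groups could not be read. The header does not name the direction. A positive sign was taken to mean more message in iBAT because Ucp1, which is not one of the members, stood at 15.87 ± 0.90 on the log2 scale in the authors' deposited table. A level per tissue was derived for single genes from the base mean and the fold change, assuming that the base mean averages 4 and 4 libraries and that the fold is the ratio of the depot means. These derived levels are compared within a gene only, since counts are not divided by transcript length. A gene counted as higher or lower where its deposited adjusted p was under 0.05.

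Of the 47 members, 42 were higher in iBAT, 1 was lower and 4 were not called. The background is broad: 48% of all genes in the table were called, 20.9% higher and 27.1% lower. By the narrower rule of at least 1 on the log2 scale, 40 members were higher, against 11% of all genes. The median log2 fold change of the members was 1.86, a ratio of 3.64, against -0.10 for all genes. Most members are abundantly counted, and among the 5813 genes with a base mean of at least 1000 the share called higher was 37.4%. Among the 41 members above that level, 38 were higher and 1 was lower (median 2.00 against 0.20 for all genes above it). In bulk tissue, fewer cells of a type and less RNA per cell cannot be told apart.

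**Figure D1:**
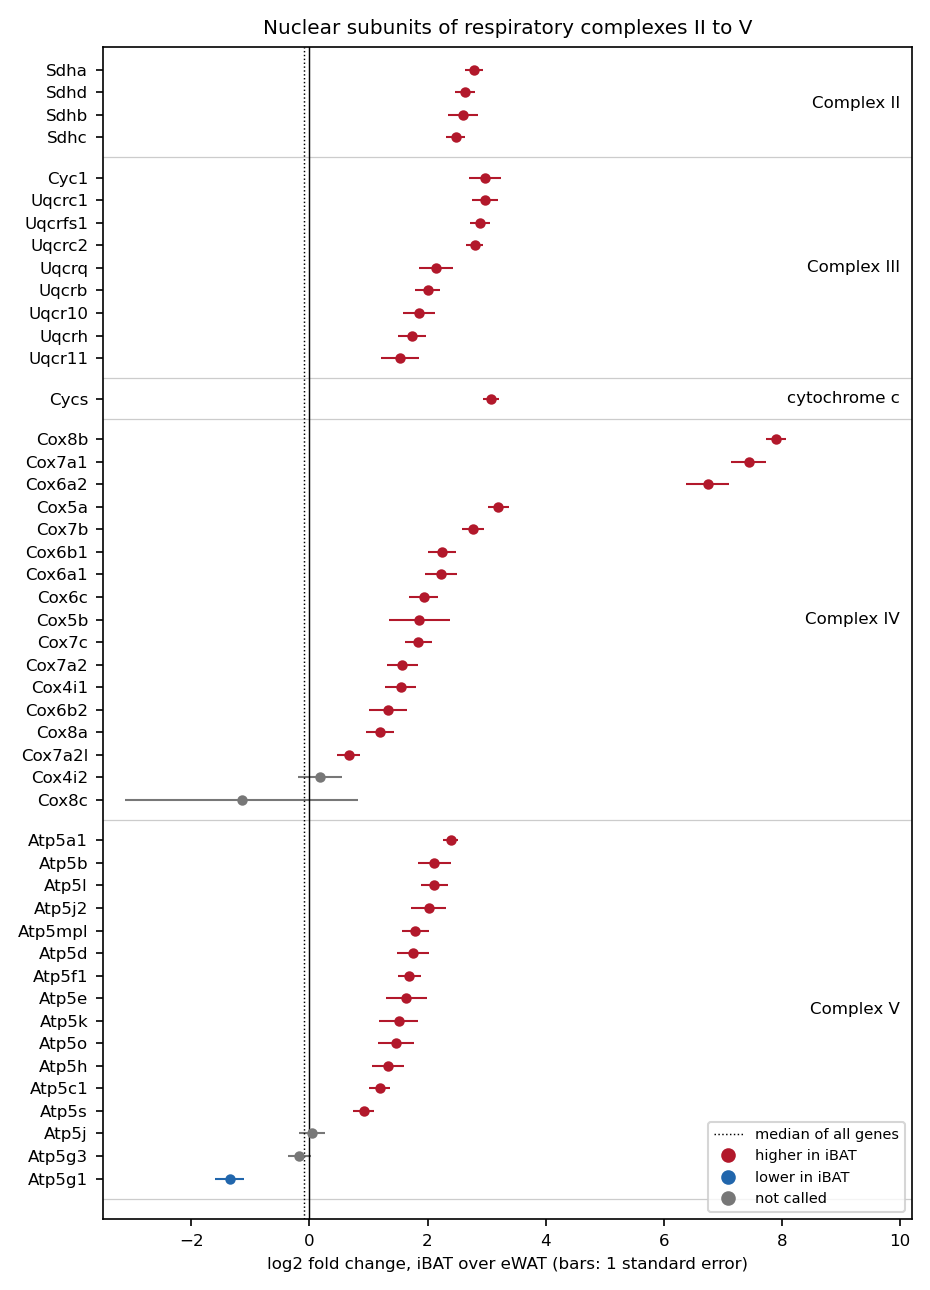
Log2 fold change (iBAT over eWAT) of the 47 members in the authors' deposited table, by complex, with bars of 1 SE. The dotted line is the median of all genes, -0.10. Cox8b, Cox7a1 and Cox6a2 lie between 6.74 and 7.90, and Atp5g1 at -1.35 is the 1 member called lower.

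**Figure D2:**
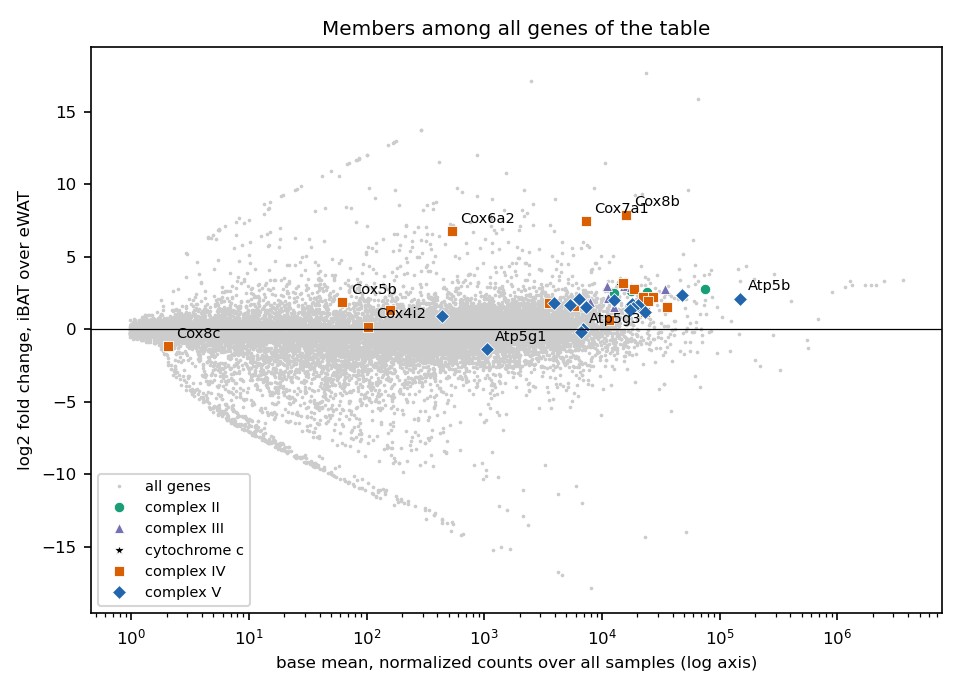
Base mean (log axis, normalized counts) against log2 fold change (iBAT over eWAT) for the 18947 genes in grey and the members coloured by complex. Of the members, 41 have a base mean of at least 1000, and 38 of those were called higher in iBAT.

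All 4 subunits of complex II were higher in iBAT, within a narrow range of log2 fold changes from 2.48 to 2.79. The flavoprotein Sdha, which oxidises succinate, had a log2 fold change of 2.79 ± 0.15 (adjusted p = 7.94e-78) by the authors' deposited table. Its base mean of 75426 corresponds to derived levels of 131775 in iBAT and 19078 in eWAT. The iron-sulfur subunit Sdhb stood at 2.60 ± 0.25 (adjusted p = 7.83e-25) by the authors' deposited table. For the membrane anchors that bind ubiquinone, the authors' deposited table gives 2.48 ± 0.16 for Sdhc and 2.64 ± 0.17 for Sdhd. The 95% intervals of the 4 subunits overlap one another. In ratio terms, complex II messages were 5.58-fold to 6.91-fold higher in iBAT.

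All 9 nuclear subunits of complex III were higher in iBAT, with a median log2 fold change of 2.14. They fell into 2 ranges that follow their roles, a split made after the values were seen. The catalytic and core subunits ran from 2.80 to 2.98, and the small subunits from 1.53 to 2.14. Cytochrome c1 (Cyc1), the heme protein that hands electrons to cytochrome c, had a log2 fold change of 2.98 ± 0.27 (adjusted p = 2.2e-27) by the authors' deposited table. Its derived levels were 19648 in iBAT and 2494 in eWAT. The core proteins Uqcrc1 and Uqcrc2 and the Rieske iron-sulfur protein Uqcrfs1 stood at 2.97 ± 0.22, 2.80 ± 0.14 and 2.89 ± 0.17 in the authors' deposited table. Among the small subunits, Uqcr11 was lowest, at 1.53 ± 0.32 (adjusted p = 1.93e-06) by the authors' deposited table. The gap between the nearest members of the 2 ranges, Uqcrc2 and Uqcrq, was 0.65 on the log2 scale (95% interval 0.03 to 1.28). This interval treats the errors of the 2 genes as independent, and its lower end leaves little margin, so the ranges are not firmly apart at that edge. The hinge protein gene Uqcrh, at 1.73 ± 0.24 in the authors' deposited table, has 2 pseudogenes with which reads could be shared.

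Cytochrome c (Cycs), the soluble carrier between complexes III and IV, had a log2 fold change of 3.07 ± 0.13 (adjusted p = 2.75e-119) by the authors' deposited table. This is an 8.41-fold ratio, with derived levels of 25435 in iBAT and 3026 in eWAT. Its testis form Cyct, listed with the heme genes, had a base mean of 1.44 and was not called (-0.26 ± 0.99, adjusted p = 0.587) by the authors' deposited table. The Cycs promoter is shown because it holds motifs known from nuclear genes of respiration. The 250 bases before its start (GRCm38.p6, chr6:50566570-50566819, minus strand) come from the RefSeq promoter table, and capitals mark the NRF1 core CGCATGCG and the cyclic AMP response element TGACGTCA:
Cycs: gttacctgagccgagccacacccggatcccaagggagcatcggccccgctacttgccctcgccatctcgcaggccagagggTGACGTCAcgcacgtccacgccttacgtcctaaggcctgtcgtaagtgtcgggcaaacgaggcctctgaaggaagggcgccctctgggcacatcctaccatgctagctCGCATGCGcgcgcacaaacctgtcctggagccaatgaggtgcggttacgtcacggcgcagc

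Complex IV held the widest spread, from -1.15 to 7.90 on the log2 scale, with 15 of 17 nuclear subunits higher in iBAT and 2 not called. The 5 subunits without a measured isoform partner ran from 1.85 to 3.20. Cox5a, which lies on the matrix side of the complex, had a log2 fold change of 3.20 ± 0.18 (adjusted p = 9.79e-69) by the authors' deposited table, 9.17-fold higher in iBAT. Cox7b was next at 2.77 ± 0.19, followed by Cox6c at 1.93 ± 0.24, Cox5b at 1.86 ± 0.51 and Cox7c at 1.85 ± 0.23 in the authors' deposited table. Cox5b has a base mean of 62.3 by the authors' deposited table, and its value is less precise than those of the other 4. Cox6c shares reads in principle with a pseudogene copy, Cox6c2, whose base mean was 2.98 in the authors' deposited table.

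The partner genes typical of striated muscle stood far above every other member. Cox8b, a small membrane subunit of the complex, had a log2 fold change of 7.90 ± 0.17 in the authors' deposited table, which lists its adjusted p at 0. Its derived levels were 31615 in iBAT and 132 in eWAT, a 239-fold ratio. Cox7a1 had a log2 fold change of 7.44 ± 0.30 (adjusted p = 1.07e-136) by the authors' deposited table, with derived levels of 14485 and 83.5, a 174-fold ratio. Cox6a2 had a log2 fold change of 6.74 ± 0.37 (adjusted p = 7.41e-74) by the authors' deposited table, with derived levels of 1058 and 9.88. Ranked by fold change among all 18947 genes, Cox8b was number 62, Cox7a1 number 68 and Cox6a2 number 94. On GRCm38.p6 all 3 genes lie on chromosome 7: Cox8b at 140898942 to 140900446, Cox7a1 at 30184171 to 30186030 and Cox6a2 at 128205435 to 128206366.

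Their widely expressed partners rose too, but by far less. Cox8a had a log2 fold change of 1.20 ± 0.23 (adjusted p = 9.74e-07) by the authors' deposited table, with derived levels of 32069 in iBAT and 14002 in eWAT. Cox7a2 stood at 1.58 ± 0.26 (adjusted p = 3.54e-09) by the authors' deposited table, with derived levels of 8623 and 2892. Cox6a1 stood at 2.22 ± 0.27 (adjusted p = 4.74e-16) by the authors' deposited table, with derived levels of 44869 and 9610. The difference between partners was tested as a difference of log2 fold changes with a 95% interval that treats the genes' errors as independent. Cox8b exceeded Cox8a by 6.70 (interval 6.13 to 7.27), a 104-fold shift in their ratio. Cox7a1 exceeded Cox7a2 by 5.86 (interval 5.09 to 6.64), a 58.2-fold shift. Cox6a2 exceeded Cox6a1 by 4.52 (interval 3.63 to 5.41), a 22.9-fold shift.

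In the pairs Cox4i, Cox6b and Cox7a2 with Cox7a2l, the second form changed less than its partner, and Cox8c was too low in counts to tell. Cox4i2, the form of subunit 4 known from lung, was not called (0.18 ± 0.38, adjusted p = 0.709) by the authors' deposited table, while Cox4i1 stood at 1.54 ± 0.26 (adjusted p = 3.78e-09). The difference of Cox4i2 from Cox4i1 was -1.37 (interval -2.26 to -0.47). Cox6b2, known from testis, stood at 1.33 ± 0.32 (adjusted p = 6.64e-05) by the authors' deposited table, and Cox6b1 at 2.25 ± 0.24 (adjusted p = 5.46e-21). The difference of Cox6b2 from Cox6b1 was -0.92 (interval -1.71 to -0.14), and with both errors added in full the interval, -2.02 to 0.17, included 0. Cox7a2l, a relative of Cox7a2 that takes part in supercomplexes of III and IV, stood at 0.66 ± 0.20 (adjusted p = 0.00211) by the authors' deposited table. This was the smallest change called among the members, and it differed from Cox7a2 by -0.91 (interval -1.56 to -0.27). Cox8c, also known from testis, had a base mean of 2.05 and a log2 fold change of -1.15 ± 1.97 (adjusted p = 0.0826) by the authors' deposited table. Its difference from Cox8a, -2.34, had an interval from -6.24 to 1.55, so no shift was detectable at that level. The deposited p of Cox8c is smaller than its SE gives, since fold change over SE leads to an adjusted p of 0.734.

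**Figure D3:**
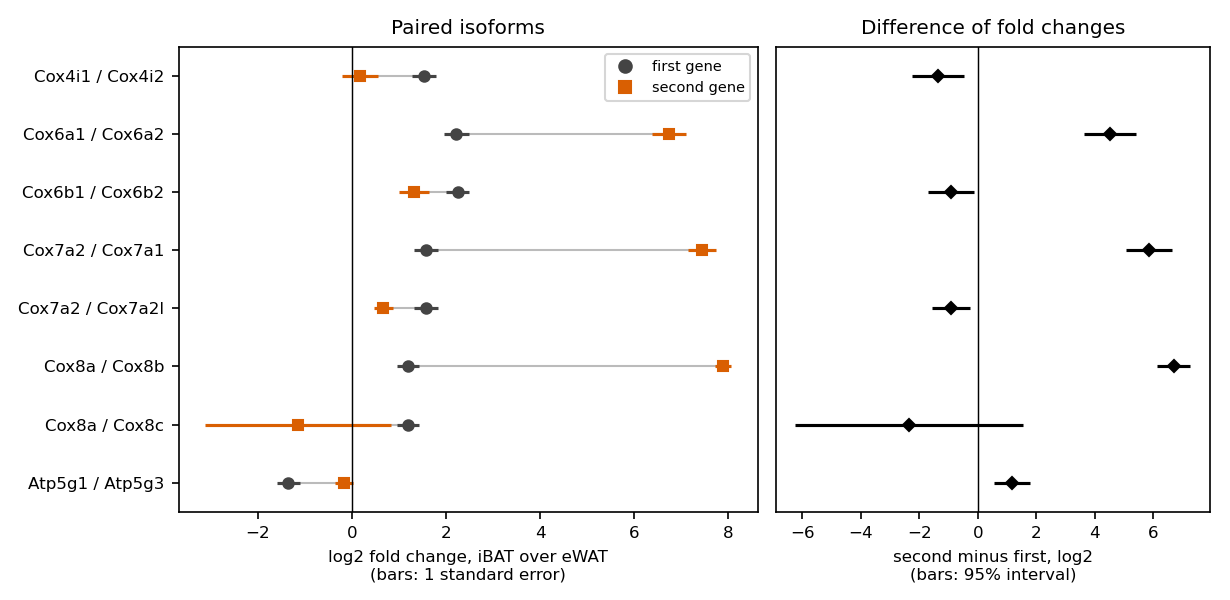
Left, log2 fold change (iBAT over eWAT, bars of 1 SE) of both genes of each isoform pair; right, the difference within each pair with its 95% interval. Cox6a2, Cox7a1 and Cox8b exceed their partners by 4.52 to 6.70, and the intervals of Cox4i2, Cox6b2 and Cox7a2l lie below 0.

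Promoters of the Cox7a and Cox8 pairs are shown because, of the pairs whose genes both have a window, these differ most. Each is the 250 bases before the RefSeq start on GRCm38.p6, at chr9:79759854-79760103 (minus strand) for Cox7a2, chr7:30183921-30184170 (plus strand) for Cox7a1, chr19:7217617-7217866 (minus strand) for Cox8a and chr7:140900447-140900696 (minus strand) for Cox8b. None of these 4 stretches holds a whole copy of a searched motif, so none has capitals, and the 2 copies of the GABP motif found for Cox8a lie across or after the start:
Cox7a2: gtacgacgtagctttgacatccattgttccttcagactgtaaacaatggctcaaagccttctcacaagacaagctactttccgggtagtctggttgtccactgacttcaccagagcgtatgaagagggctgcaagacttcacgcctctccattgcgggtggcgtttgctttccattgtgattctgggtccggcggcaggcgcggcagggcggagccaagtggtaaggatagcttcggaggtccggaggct
Cox7a1: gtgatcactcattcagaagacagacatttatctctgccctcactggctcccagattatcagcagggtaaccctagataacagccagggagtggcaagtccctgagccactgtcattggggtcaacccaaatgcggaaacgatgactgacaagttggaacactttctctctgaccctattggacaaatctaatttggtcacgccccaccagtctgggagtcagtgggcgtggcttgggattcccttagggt
Cox8a: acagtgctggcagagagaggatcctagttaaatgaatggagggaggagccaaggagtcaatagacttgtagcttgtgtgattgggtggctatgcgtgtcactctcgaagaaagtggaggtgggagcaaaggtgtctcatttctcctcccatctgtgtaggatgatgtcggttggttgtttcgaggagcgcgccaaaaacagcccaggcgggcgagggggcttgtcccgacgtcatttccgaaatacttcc
Cox8b: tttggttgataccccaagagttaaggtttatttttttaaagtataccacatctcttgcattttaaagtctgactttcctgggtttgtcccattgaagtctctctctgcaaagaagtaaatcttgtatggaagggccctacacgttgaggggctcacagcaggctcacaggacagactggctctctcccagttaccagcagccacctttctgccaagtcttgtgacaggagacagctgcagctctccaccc
In the full windows of 300 bases (250 before and 50 after the start), Cox8a held 19 CG dinucleotides and Cox7a2 20, whereas Cox8b held 2 and Cox7a1 7. The median was 19 over the members' windows and 7 over all 32851 windows.

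Complex V had the lowest median of the complexes, 1.58 on the log2 scale, with 13 of 16 members higher in iBAT, 1 lower and 2 not called. All 5 subunits of the F1 head, where ATP is made, were higher. The alpha subunit gene Atp5a1 stood at 2.39 ± 0.13 (adjusted p = 5.34e-71) by the authors' deposited table, and this was the largest change in the complex. The catalytic beta subunit gene Atp5b stood at 2.12 ± 0.28 (adjusted p = 7.32e-14) by the authors' deposited table, with derived levels of 241230.1 in iBAT and 55580 in eWAT. Atp5c1, which encodes the rotating gamma subunit, was lowest of the head at 1.19 ± 0.18 (adjusted p = 3.46e-10) by the authors' deposited table. The 4 accessory membrane subunits ran from 1.51 to 2.11, all higher. Atp5c1 and the accessory genes Atp5k and Atp5l also have pseudogenes with which reads could be shared. Atp5s, which encodes the coupling factor B and is no structural subunit, stood at 0.92 ± 0.18 (adjusted p = 1.12e-06) by the authors' deposited table. Sdhc, the lowest complex II subunit, exceeded Atp5a1 by 0.09 (interval -0.32 to 0.50), so no gap between those complexes was shown at that edge.

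The c ring and one stalk subunit departed from the rest of complex V. Atp5g1 (chromosome 11, 96072793 to 96075694), 1 of several genes for an identical mature subunit c, was lower in iBAT at -1.35 ± 0.25 (adjusted p = 1.17e-07) by the authors' deposited table. Its derived levels were 592 in iBAT and 1508 in eWAT, a 2.55-fold difference. Atp5g3, another gene for subunit c, was not called (-0.17 ± 0.19, adjusted p = 0.474) by the authors' deposited table, with derived levels of 6233 and 7012. The 95% interval of Atp5g3, -0.54 to 0.20, leaves out the values of all 5 head subunits. Atp5g3 exceeded Atp5g1 by 1.18 (interval 0.57 to 1.79), and Atp5a1 exceeded Atp5g1 by 3.74 (interval 3.19 to 4.29). Atp5c1, the head subunit nearest to it, exceeded Atp5g3 by 1.36 (interval 0.84 to 1.88). Subunit c genes and their pseudogenes are similar in the coding part, so the division of reads among them is uncertain, and Atp5g2 was not analysed here.

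Of the 4 stalk subunits, Atp5f1 (b), Atp5o (OSCP) and Atp5h (d) were higher, from 1.33 to 1.69. Atp5j, which encodes coupling factor 6, was not called (0.05 ± 0.22, adjusted p = 0.871) by the authors' deposited table. Its derived levels were 7043 in iBAT and 6799 in eWAT. Atp5f1, whose product sits beside it in the stalk, exceeded Atp5j by 1.64 (interval 1.07 to 2.21). The comparisons named in these paragraphs outside the isoform pairs were chosen after the values were seen.

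Both the NRF1 core and the GABP motif occurred in promoter windows of 5 members. Of these, Atp5j was not called, and Atp5k, Atp5l, Cox6a1 and Uqcr11 were higher in iBAT. The promoters of Atp5j, not called, and of the accessory subunit g gene Atp5l, at 2.11 ± 0.23 in the authors' deposited table, are shown because both hold the NRF1 core and the GABP motif CCGGAAG. They lie at chr16:84834977-84835226 and chr9:44920743-44920992 (GRCm38.p6, both minus strand). Capitals mark those motifs on either strand and, for Atp5j, the YY1 motif AAGATGG. A further GABP copy of Atp5l lies after the start, outside the bases shown. Atp5j has a further window, which holds none:
Atp5j: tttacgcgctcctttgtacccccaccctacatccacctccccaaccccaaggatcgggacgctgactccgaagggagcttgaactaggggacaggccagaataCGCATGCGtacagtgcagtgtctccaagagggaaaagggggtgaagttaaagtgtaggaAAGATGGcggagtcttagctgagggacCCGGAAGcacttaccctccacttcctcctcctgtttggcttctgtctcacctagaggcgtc
Atp5l: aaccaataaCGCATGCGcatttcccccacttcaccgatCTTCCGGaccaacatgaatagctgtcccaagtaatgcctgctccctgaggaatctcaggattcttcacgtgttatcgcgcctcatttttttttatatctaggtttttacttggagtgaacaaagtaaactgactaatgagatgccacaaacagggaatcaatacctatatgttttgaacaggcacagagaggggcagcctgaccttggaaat

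RefSeq promoter windows matched 35 members with 38 windows, and 12 members had none. The 7 motifs given here were searched on both strands. The NRF1 core CGCATGCG was in 7 member windows, 18.4%, against 1.87% of all 32851 windows. The GABP motif CCGGAAG was in 12, 31.6%, against 8.86%. The ERR motif TCAAGGTCA was in 2 windows, of Atp5g3 and Sdhd, or 5.26% against 0.423%. The CRE TGACGTCA was in 2, of Cycs and Uqcrfs1, or 5.26% against 1.79%. YY1 AAGATGG was in 4 (10.5% against 6.34%), SP1 GGGGCGGGG in 6 (15.8% against 11.4%), and MEF2 CTATTTATA in none against 0.429%. NRF1 or GABP motifs were in 14 windows, 36.8%, against 10.4%. These are matches of letters, and the members' windows also hold more CG dinucleotides than windows at large, as given above.

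Complex I and the mitochondrially encoded subunits give the scale against which these changes stand. All 37 genes matched by symbol as nuclear subunits of complex I, Ndufb4 and Ndufb4c both among them, were higher in iBAT. Their median log2 fold change was 1.68, with a range from 0.90 to 3.08. The 6 mitochondrial genes of complexes III to V were all higher as well, from 3.03 to 3.84. Mitochondrial Cytb, of complex III, stood at 3.07 ± 0.21 (adjusted p = 1.96e-44) by the authors' deposited table and exceeded Cyc1 by 0.09 (interval -0.59 to 0.77). Mitochondrial Co2, of complex IV, stood at 3.03 ± 0.13 (adjusted p = 1.81e-113) by the authors' deposited table and differed from Cox5a by -0.16 (interval -0.60 to 0.28). Mitochondrial Atp6, of complex V, stood at 3.29 ± 0.23 (adjusted p = 9.8e-47) by the authors' deposited table and exceeded Atp5a1 by 0.90 (interval 0.39 to 1.42). Each nuclear gene in these comparisons was the one with the largest change in its complex, the muscle-type isoforms aside, and Co2 had the smallest change of the 3 mitochondrial genes of complex IV. The choice of gene bears on the outcome, since other nuclear subunits lay lower, such as Uqcr11 at 1.53 ± 0.32 and Cox4i1 at 1.54 ± 0.26 in the authors' deposited table.

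Genes that build the complexes were mostly higher in iBAT. For complex II, 3 of 4 assembly factors were higher, with a median of 0.88 against 2.62 for the subunits. Sdhaf3 stood at 1.31 ± 0.15, Sdhaf1 at 0.90 ± 0.26 and Sdhaf4 at 0.85 ± 0.26 in the authors' deposited table. Sdhaf2, which helps attach flavin to Sdha, was not called (0.32 ± 0.17, adjusted p = 0.0999) by the authors' deposited table. For complex III, 4 of 6 measured factors were higher, led by Lyrm7, a chaperone of the Rieske protein, at 3.24 ± 0.17, and by Uqcc1 at 2.28 ± 0.23 in the authors' deposited table. Uqcc2 at 0.52 ± 0.31 and Uqcc3 at 0.28 ± 0.29 were below the call by the authors' deposited table.

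For complex IV, 20 of 24 measured genes listed as assembly factors were higher, with a median of 1.09 against 1.86 for the subunits. That list includes Ndufa4, now counted with complex IV itself. Cox10, of heme A synthesis, stood at 2.56 ± 0.15 and Lrpprc, which stabilises mitochondrial messages, at 2.54 ± 0.20 in the authors' deposited table. Surf1 (-0.11 ± 0.22), Cox16 (0.07 ± 0.26), Coa3 (0.07 ± 0.21) and Cox19 (0.37 ± 0.21) were below the call by the authors' deposited table. For complex V, all 5 measured factors were higher, with a median of 1.71. Fmc1 stood at 2.38 ± 0.25, Atpaf2 at 2.22 ± 0.19, Atpaf1 at 0.88 ± 0.17 and Tmem242 at 0.78 ± 0.28 in the authors' deposited table. Atpaf1 and Atpaf2 encode chaperones of the F1 head. Of the heme genes, Hccs, which attaches heme to cytochrome c, stood at 2.50 ± 0.15, Alas1 at 1.21 ± 0.21 and Fech at 0.98 ± 0.20 in the authors' deposited table.

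Among 19 regulators of respiratory genes, 15 were higher and 4 were not called, with a median of 1.48. Perm1 stood at 6.82 ± 0.22 and Ppara, a nuclear receptor for fatty acids, at 5.52 ± 0.17 in the authors' deposited table. The coactivators Ppargc1b and Ppargc1a stood at 4.93 and 3.58, and the ERR receptors Esrrg, Esrrb and Esrra at 3.83, 3.46 and 2.56 in the authors' deposited table. Not called were Nrf1 (0.09 ± 0.18), Gabpb1 (0.11 ± 0.20), Yy1 (0.28 ± 0.24) and the coactivator Pprc1 (-0.18 ± 0.39) in the authors' deposited table. Gabpa, the DNA-binding partner of Gabpb1, was higher at 1.48 ± 0.36 (adjusted p = 6.57e-05) by the authors' deposited table.

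Genes of mitochondria outside the respiratory chain, taken as a reference for mitochondrial mass, were higher for 16 of 17 members, with a median of 1.30 on the log2 scale. Citrate synthase (Cs) stood at 3.13 ± 0.17 and Opa1, of inner membrane fusion, at 2.57 ± 0.25 in the authors' deposited table. Clpp was lowest of those called at 0.64 ± 0.27, and Tomm20 was not called (-0.12 ± 0.19) in the authors' deposited table. Citrate synthase differed from Sdha by an interval that included 0 (Sdha minus Cs -0.34, -0.79 to 0.10). That comparison was chosen after the values were seen and used the highest reference gene. Opa1, the next highest, and the rest of the list lay below the 2.79 of Sdha.

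Markers of other cells moved with the depots. All 22 skeletal muscle markers were higher in iBAT, with log2 fold changes from 2.88 for Myl1 to 17.69 for Myh4 and a median of 7.12 in the authors' deposited table. Their derived levels summed to 196212 in iBAT and 4164 in eWAT, and of these markers Myh4, at 0.224 in eWAT, and Tnni1, at 1.78, were nearest to 0 there. Cox6a2, Cox7a1 and Cox8b, at 6.74 to 7.90, lie inside that range and inside the range of the brown adipocyte markers (2.06 to 15.87). Both ranges are wide and also hold other members, such as Cox5a at 3.20. Striated muscle also makes Cox6a2, Cox7a1 and Cox8b, so brown fat's own messages and those of muscle cannot be told apart for these genes. Without these 3 genes, a setting chosen after seeing the data, 39 of 44 members were higher and the median was 1.85. Leaving out 3 genes could change these values little, and it does not set aside whatever muscle adds to the other members. All 8 brown adipocyte markers were higher (2.06 to 15.87). Of 7 general adipocyte markers, 1 was higher, 3 were lower and 3 not called (median -0.02). In the other direction, 9 of 10 measured epididymis markers, 8 of 8 mesothelium markers and 8 of 8 macrophage markers were lower in iBAT. The call of the epididymis marker Gpx5 rests on its deposited p, since its log2 fold change was -0.61 ± 1.33 in the authors' deposited table. The derived levels summed to 2571 in iBAT and 103273 in eWAT for epididymis, with Gpx5 alone giving 2560.2 of the iBAT sum, and to 300.5 and 15532 for mesothelium and 14618 and 59766 for macrophages. The part of these cell types in the differences of the members, the regulators and the other lists was not tested.

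**Figure D4:**
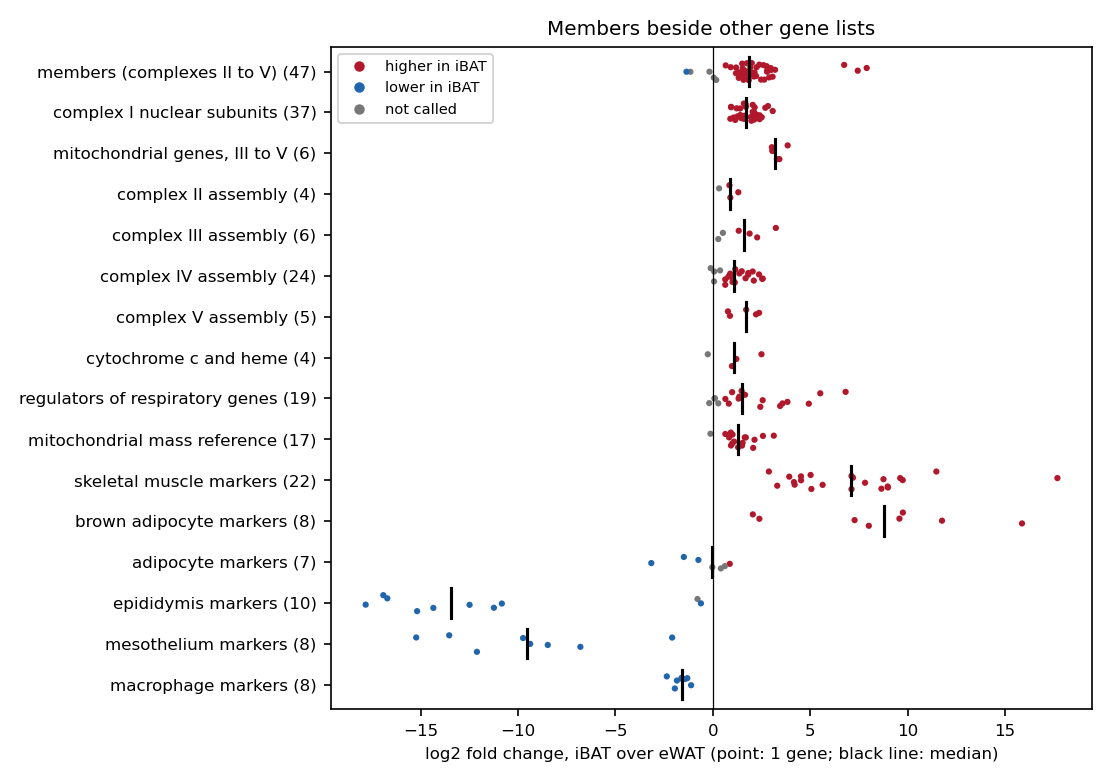
Log2 fold change (iBAT over eWAT) of each gene, with a line at the median, for the members, complex I, the mitochondrial genes and the 13 other gene lists. The members' median is 1.86, against 1.30 for the mitochondrial reference genes, 7.12 for muscle markers and -0.02 for general adipocyte markers.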

How the data were processed

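The mRNA values come from 1 table of the authors' comparison of iBAT with eWAT. Its base mean is a signal, the mean over all samples of normalized counts, per the file headers. The log2 fold changes and SEs are log2 values the authors deposited. The p-values, plain and adjusted, are also deposited; Benjamini-Hochberg adjustment of the deposited p-values over all 18947 genes gave the adjusted ones within 2.4e-07. The submitters' processing notes list, with no role, mm10, GRCm38, Novoalign, DESeq, DESeq2 and kallisto 0.45.0. The deposited name of this table includes DEseq, which does not tell DESeq from DESeq2. Its version and settings were not given in the sources used here, and library depth is unknown. The deposited microRNA table was not used.

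Identifiers were matched to symbols, giving 18758 genes a name. RefSeq coordinates and promoters are GRCm38.p6. Python 3.11.15 with scipy 1.17.1 computed medians, differences of log2 fold changes with 95% normal intervals, derived levels and motif counts, and was tested on simulated data. No test was run over a gene list. Values are given for every isoform partner, every member not called or lower, the extremes of each complex, complex II, Cyc1 and Cycs. Of the assembly, heme, regulator and mitochondrial reference lists, the 2 highest, the 2 lowest and those not called are given. The lists of cell markers are given by counts with medians, ranges or sums, and few of their genes are named. The members, lists and rules were chosen with earlier results of these data known. Alternatives were p-values from fold change over SE, centring, a base mean of at least 10, an adjusted p under 0.01, a log2 minimum of 1, members by synonym, and added SEs; sets without the muscle-type isoforms or with a base mean of at least 1000 were added after seeing the data.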

Additional observations from a re-analysis of the deposited data

How the results depend on the processing

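The counts of 42 members higher and 1 lower were unchanged with p-values computed from fold change over SE, with centring on the median of all genes (a shift of 0.10), at a base mean of at least 10 and at an adjusted p under 0.01, and no member changed its call under these. A minimum of 1 on the log2 scale left 40 higher, without Cox7a2l and Atp5s. Members added by synonym brought the count to 44 of 50, through Usmg5 and through Dmac2, which is no subunit. With the SEs of both genes added, the difference of Cox6b2 from Cox6b1 remained -0.92 but its interval included 0, while the other pair intervals stayed on their side of 0, or, for Cox8c, still included it. The Cox8a and Cox8c pair has no value at a base mean of at least 10, and 3 of 11 listed pairs have none at all. No paired analysis was possible because the deposited file holds a table of comparisons with no values per library, and no library could be left out in turn for the same reason. The deposited p of 45 of 46 members was smaller than fold change over SE gives, within 0.9 to 1.1 of it as a z value for 44. Depth per library is unknown. Levels near the lowest counts, as for Cox8c, limit what can be read.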

Other observations

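Genes next to the members by function but outside the symbol rule were, apart from Ndufa4, named after their values were seen. Atpif1, which encodes the inhibitor that blocks ATP hydrolysis by complex V, was lower in iBAT at -2.21 ± 0.23 on the log2 scale (adjusted p = 1.45e-20) by the authors' deposited table. Usmg5, a small membrane subunit of ATP synthase known also as Atp5md, was higher at 1.69 ± 0.23 (adjusted p = 6.8e-13) by the authors' deposited table. Ndufa4, now counted with complex IV and included above in its assembly list, was higher at 1.36 ± 0.27 (adjusted p = 7.12e-07) by the authors' deposited table. Its relative Ndufa4l2 was not called at 0.19 ± 0.31 (adjusted p = 0.62) by the authors' deposited table. Of the pseudogenes dropped from the members, 3 were in the authors' deposited table, at base means of 1.32 to 5.80.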
